A study of Mus musculus with 15 samples.

Results

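The genes described here are those that copy DNA and carry a cell over the boundary between G1 and S phase. The set was given as a list of 46 mouse symbols, chosen by function. Probes of 43 of the 46 could be named, out of 16592 genes measured in all, and these 43 are described. Gins1, Gins2 and Rfc3 had no probe named for them here and are not analysed here. The 43 were arranged by the step in which their products act, into 10 groups that run from the loading of the helicase to the packing of the new DNA.

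Replication begins in G1, when the origin recognition complex, with Cdc6 and Cdt1, loads rings of Mcm2 to Mcm7 onto DNA. In S phase cyclin E kinases and helpers such as Mcm10 and Cdc45 turn these rings into active helicases, behind which polymerases alpha, delta and epsilon copy the strands. Many of the genes share control by E2F transcription factors, which the retinoblastoma protein holds back until cyclin-dependent kinases release them. In the small intestine cells divide in the crypts, where Wnt signalling is active, and stop dividing as they move onto the villi.

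The study asked what loss of Brg1, the ATPase subunit of a SWI/SNF chromatin remodelling complex encoded by Smarca4, does to jejunal epithelium with normal or with aberrant Wnt signalling. Total RNA was hybridised to Illumina bead arrays from 15 mice in 4 genotype groups. The Brg1-Apc deficient group (4 arrays) was VillinCreERT2+_Apcfl/fl_Brg1fl/fl and lost both genes in the epithelium. The Apc deficient group (3 arrays) was VillinCreERT2+_Apcfl/fl_Brg1+/+, and it lost Apc, a brake on Wnt signalling. The Brg1 deficient group (4 arrays) was VillinCreERT2+_Brg1fl/fl. The control group (4 arrays) was VillinCreERT2-. Induction was the same in every group, controls included: tamoxifen at 80 mg/kg was injected daily, 4 times, and the jejunum was collected at day 4. The villin promoter directs the inducible Cre to intestinal epithelium, so other cells keep both genes. Because controls carried no Cre, a comparison with control also holds any effect of the induced Cre, and this does not cancel in the interaction. The epithelium was scraped from the muscle wall, so a sample can also hold lymphocytes, stroma and muscle.

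Levels are the deposited log2 values of 1 probe per gene, that with the highest mean, and every difference is on the log2 scale, as the mean of the first group named minus that of the second, with its standard error (SE). Values after ± are SD over the arrays of a group. The number of arrays limits the precision, and p-values measure the spread between arrays, which the labels number as replicates within 4 cohorts of mice. Smarca4 had 6.04, 6.10, 6.16 and 6.04 in Brg1-Apc deficient and 6.03, 6.18, 6.22 and 6.36 in Brg1 deficient arrays. It had 8.40, 8.17 and 7.88 in Apc deficient and 7.73, 7.63, 7.35 and 7.51 in control arrays, so no array went against its Brg1 label. No source states where the Apc probes lie relative to the deleted part, so Apc levels do not check that label. General epithelial markers averaged between 11.40 and 11.96 on every array, though single markers differed by -1.57 to 1.78 in Apc deficient against control arrays. Markers of other tissues stood high on single control arrays, with a smooth muscle marker mean of 9.07 on control replicate 1 against 5.04 to 7.36 elsewhere and an acinar marker mean of 10.21 on control replicate 4 against 5.92 to 6.32 elsewhere. Replicates 1 and 2 were on 1 slide and replicates 3 and 4 on another. Each slide position held arrays of a single genotype, so position and genotype cannot be told apart.

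The promoters of 5 members are shown because they hold different numbers of E2F words, the sequence that E2F proteins bind: 3 in Mcm6, 2 in Mcm5, 1 each in Cdc6 and Pola1 and 0 in Mcm2. Each stretch is the 170 bases before the RefSeq gene start in GRCm38.p6, read 5′ to 3′ on the strand of the gene. Capitals mark the E2F words TTTCCCGC, TTTCGCGC, TTTGCCGC and TTTGGCGC on either strand. The Mcm6 stretch is chr1:128359706-128359875 on the minus strand, Mcm5 is chr8:75109339-75109508 on the plus strand, Cdc6 is chr11:98907981-98908150 on the plus strand, Pola1 is chrX:93632156-93632325 on the minus strand and Mcm2 is chr6:88898781-88898950 on the minus strand.
Mcm6: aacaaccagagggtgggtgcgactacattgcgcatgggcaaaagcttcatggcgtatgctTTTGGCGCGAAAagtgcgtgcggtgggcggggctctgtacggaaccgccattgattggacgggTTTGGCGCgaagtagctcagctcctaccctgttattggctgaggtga
Mcm5: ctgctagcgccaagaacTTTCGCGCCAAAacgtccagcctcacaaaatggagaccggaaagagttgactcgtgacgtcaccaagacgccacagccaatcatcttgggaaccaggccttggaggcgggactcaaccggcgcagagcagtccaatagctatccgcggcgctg
Cdc6: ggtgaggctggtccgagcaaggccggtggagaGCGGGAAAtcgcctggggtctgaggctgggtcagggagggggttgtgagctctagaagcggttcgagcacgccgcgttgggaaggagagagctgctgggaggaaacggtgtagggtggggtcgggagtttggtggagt
Pola1: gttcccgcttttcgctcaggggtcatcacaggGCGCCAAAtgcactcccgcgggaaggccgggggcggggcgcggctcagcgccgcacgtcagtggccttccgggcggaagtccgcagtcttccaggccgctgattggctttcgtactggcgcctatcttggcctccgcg
Mcm2: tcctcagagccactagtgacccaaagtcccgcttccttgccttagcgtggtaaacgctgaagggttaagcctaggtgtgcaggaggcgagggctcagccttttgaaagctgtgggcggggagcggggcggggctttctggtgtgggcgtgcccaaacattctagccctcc
Counted from the gene start, the words at -110 and -106 in Mcm6 share 4 bases, as do those at -153 and -149 in Mcm5, and each pair reads as 1 run of capitals. Over whole promoters of 300 bases, from 250 before to 50 after the start, 12 of the 37 measured members with a RefSeq promoter held a word (32.4%), against 704 of 27025 genes (2.6%). The 12 were Mcm3, Mcm5, Mcm6, Mcm7, Orc1, Cdc6, Cdt1, Pola1, Pold1, Pole2, Lig1 and Uhrf1. The CCAAT box (CCAAT, either strand) stood in 22 of the 37 (59.5%) and in 41.1% of genes, and the CHR element (TTTGAA, either strand) in 4 of the 37 (10.8%) and in 20.2% of genes. These matches describe letters only. Of the 12 members with an E2F word 7 rose in Apc deficient against control arrays, with a median difference of 1.38, and of the 25 without a word 20 rose, with a median of 1.28. In Brg1 deficient against control arrays 1 of the 12 fell (median -0.70) and 8 of the 25 fell (median -0.77). Of all probes 7.15% rose in the first of these comparisons and 2.12% fell in the second. Orc1, Pola1 and Pole2 among the 12, and Prim1 and Slbp among the 25, had all group means at or below 5.90, the highest array median. Probes this low can hardly show a change, so the counts with and without a word are not compared.

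Most of the set was higher where Apc was lost, and a smaller number of its genes were lower where Brg1 was lost, both with Apc intact and on top of Apc loss. In Apc deficient against control epithelium 31 of the 43 genes rose and 0 fell, with a median difference of 1.33, or 2.52-fold, against -0.02 over all probes. Of all 25695 probes 7.15% rose and 6.05% fell in that comparison (limma, Benjamini-Hochberg adjusted p under 0.05). In Brg1-Apc deficient against Apc deficient epithelium 0 rose and 9 fell, with a median of -0.74 against 0.03 over all probes, of which 3.21% rose and 3.97% fell. In Brg1 deficient against control epithelium 0 rose and 10 fell, with a median of -0.72 against 0.04 over all probes, of which 0.685% rose and 2.12% fell. All probes include many dim ones, among which fewer pass. Of the 12847 probes above the median level, fitted on their own, 2034 rose and 1744 fell with Apc loss. In Brg1-Apc deficient against Apc deficient epithelium 1020 of these probes rose and 1291 fell. With Brg1 loss alone 231 of these probes rose and 762 fell, with a median of -0.13. In bulk tissue fewer dividing cells and less RNA per cell cannot be told apart.

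The order of the groups was the same in most of the set. In 31 of the 43 genes the group means ran, from high to low, Apc deficient, Brg1-Apc deficient, control, Brg1 deficient. The highest mean was in Apc deficient epithelium for 37 genes and the lowest in Brg1 deficient epithelium for 35. How many of all genes had this order was not counted, so it is not read as particular to the set. Averaged over the 43 genes, the level was 8.38, 8.48, 8.50 and 8.23 on the Brg1-Apc deficient arrays and 9.07, 9.22 and 8.99 on the Apc deficient arrays. It was 7.74, 7.23, 6.66 and 6.98 on the Brg1 deficient arrays and 7.80, 7.87, 7.63 and 7.82 on the control arrays. The 3 Apc deficient arrays lay above every other array and the 4 Brg1-Apc deficient arrays came next, while Brg1 deficient replicate 1 lay among the controls and the other Brg1 deficient arrays below them.

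**Figure D1:**
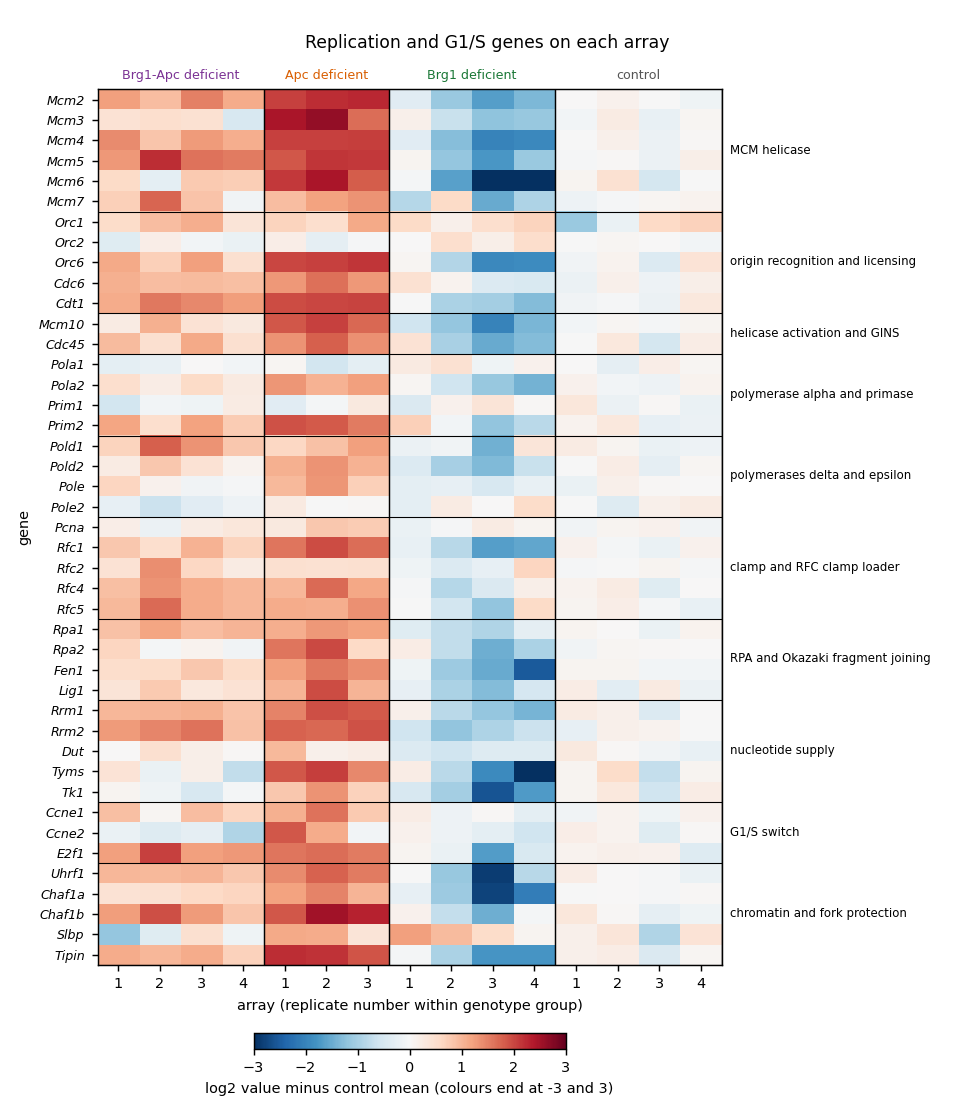
Level of each of the 43 genes (down the page, by step of replication) on each of the 15 arrays (across, by genotype group and replicate), as the log2 value minus the control mean; red is higher and blue lower, and colours end at -3 and 3. Most genes are red on the 3 Apc deficient arrays, paler red on the 4 Brg1-Apc deficient arrays and blue on Brg1 deficient replicates 2, 3 and 4. Genes that do not follow this pattern include Orc1, Orc2, Pola1, Prim1, Pole2, Slbp, Pcna, Ccne2, Tyms and Tk1.

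Some probes sat too low to follow. For Orc1, Pola1, Prim1, Pole2 and Slbp all group means were at or below 5.90, the highest array median, which is taken here as a level near background because no detection values were used. For Orc2, Cdc6, Pcna and Ccne2 at least 1 group mean was. None of the first 5 passed the test in any comparison, and a lack of change at such levels says little of the gene.

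The Mcm2 to Mcm7 ring is the motor of the replicative helicase. Of its 6 genes 5 rose in Apc deficient against control arrays, 2 fell in Brg1-Apc deficient against Apc deficient arrays, and 3 fell in Brg1 deficient against control arrays. Of all probes 7.15% rose in the first, 3.97% fell in the second and 2.12% fell in the third of these comparisons. The same shares stand beside the counts of each step below. Mcm2 had 9.78, 9.47, 10.05 and 9.66 in Brg1-Apc deficient, 10.60, 10.75 and 10.79 in Apc deficient, 8.21, 7.43, 6.88 and 7.18 in Brg1 deficient and 8.55, 8.67, 8.51 and 8.42 in control arrays. The 4 groups did not overlap. It rose by 2.17 (SE 0.25, limma adjusted p = 3.5e-05) with Apc loss, a 4.51-fold change. It fell by 0.97 (SE 0.25, limma adjusted p = 0.0271) in Brg1-Apc deficient against Apc deficient arrays and fell by 1.11 (SE 0.23, limma adjusted p = 0.014) in Brg1 deficient against control arrays. The first of these falls was lost without Brg1-Apc deficient replicates 1, 2 or 4, or any Apc deficient array (limma adjusted p up to 0.12). The second was lost without Brg1 deficient replicate 3, or control replicate 2 (limma adjusted p up to 0.0568). Even so it stayed above control when both genes were lost, by 1.20 (SE 0.23, limma adjusted p = 0.00515).

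Mcm4 had 11.78, 11.19, 11.63 and 11.45 in Brg1-Apc deficient and 12.41, 12.41 and 12.44 in Apc deficient arrays. It had 10.02, 9.10, 8.36 and 8.42 in Brg1 deficient and 10.34, 10.52, 10.19 and 10.40 in control arrays, with every Brg1 deficient array below every control. It rose by 2.06 (SE 0.31, limma adjusted p = 0.000242) with Apc loss and fell by 1.39 (SE 0.28, limma adjusted p = 0.0112) with Brg1 loss alone. In Brg1-Apc deficient against Apc deficient arrays the difference was -0.91 (SE 0.31, limma adjusted p = 0.0859), without overlap of the arrays. When both genes were lost it stayed above control by 1.15 (SE 0.28, limma adjusted p = 0.0214), a call lost without Brg1-Apc deficient replicates 1 or 3, or control replicates 1, 3 or 4 (limma adjusted p up to 0.0637). Mcm10 and Mcm4 were the members whose fall in Brg1 deficient arrays passed the test whichever single array was left out.

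Mcm3, another subunit of the ring, had the largest difference among the members in both comparisons that involve Apc deficient arrays and passed the test in both. It had 7.28, 7.34, 7.30 and 6.36 in Brg1-Apc deficient arrays, against 9.29, 9.49 and 8.51 in Apc deficient arrays. In Brg1 deficient arrays it had 6.99, 6.17, 5.62 and 5.71, against 6.76, 7.09, 6.61 and 6.90 in controls. It rose by 2.25 (SE 0.33, limma adjusted p = 0.000217) in Apc deficient against control arrays and fell by 2.02 (SE 0.33, limma adjusted p = 0.00131) in Brg1-Apc deficient against Apc deficient arrays, a 4.06-fold fall. Brg1-Apc deficient arrays then differed from controls by 0.23 (SE 0.31, limma adjusted p = 0.789), and replicate 4 of that group was the lowest at 6.36. The interaction, which asks whether Brg1 loss acted differently with Apc lost, was -1.30 (SE 0.45, limma adjusted p = 0.228).

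Mcm5, also of the ring, had the largest rise among the members that rose in Brg1-Apc deficient against control arrays. It had 11.33, 12.23, 11.66 and 11.58 in Brg1-Apc deficient and 11.90, 12.18 and 12.15 in Apc deficient arrays, which overlapped. It had 10.11, 8.86, 8.28 and 8.90 in Brg1 deficient and 9.99, 10.06, 9.86 and 10.19 in control arrays, with Brg1 deficient replicate 1 inside the control range. It rose by 2.05 (SE 0.32, limma adjusted p = 0.000356) in Apc deficient and rose by 1.67 (SE 0.30, limma adjusted p = 0.00274) in Brg1-Apc deficient arrays against control. The difference between Brg1-Apc deficient and Apc deficient arrays was -0.38 (SE 0.32, limma adjusted p = 0.574), which does not show that they were alike.

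Mcm6, the subunit with 3 E2F words in its promoter, had 9.65, 8.78, 9.85 and 9.80 in Brg1-Apc deficient, 11.18, 11.52 and 10.88 in Apc deficient, 9.0, 7.45, 6.01 and 5.88 in Brg1 deficient and 9.14, 9.53, 8.53 and 9.07 in control arrays. Brg1 deficient replicates 3 and 4 sat more than 2 below every control while replicate 1 lay inside the control range. It rose by 2.12 (SE 0.54, limma adjusted p = 0.0135) in Apc deficient arrays and fell by 1.98 (SE 0.50, limma adjusted p = 0.0416) in Brg1 deficient arrays against control. The rise was lost without Apc deficient replicate 2 (limma adjusted p = 0.0738). This fall did not pass on leaving out any single array other than Brg1-Apc deficient replicate 2 and Brg1 deficient replicate 1 (limma adjusted p up to 0.142). Mcm7 averaged 9.16 ± 0.75 in Brg1-Apc deficient, 9.51 ± 0.21 in Apc deficient, 7.67 ± 0.89 in Brg1 deficient and 8.35 ± 0.11 in control arrays, and passed only in Brg1-Apc deficient against Brg1 deficient arrays, where it rose by 1.48 (SE 0.38, limma adjusted p = 0.0288). That call was lost without Brg1-Apc deficient replicates 1, 2 or 3, or Brg1 deficient replicates 1 or 3 (limma adjusted p up to 0.105).

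**Figure D2:**
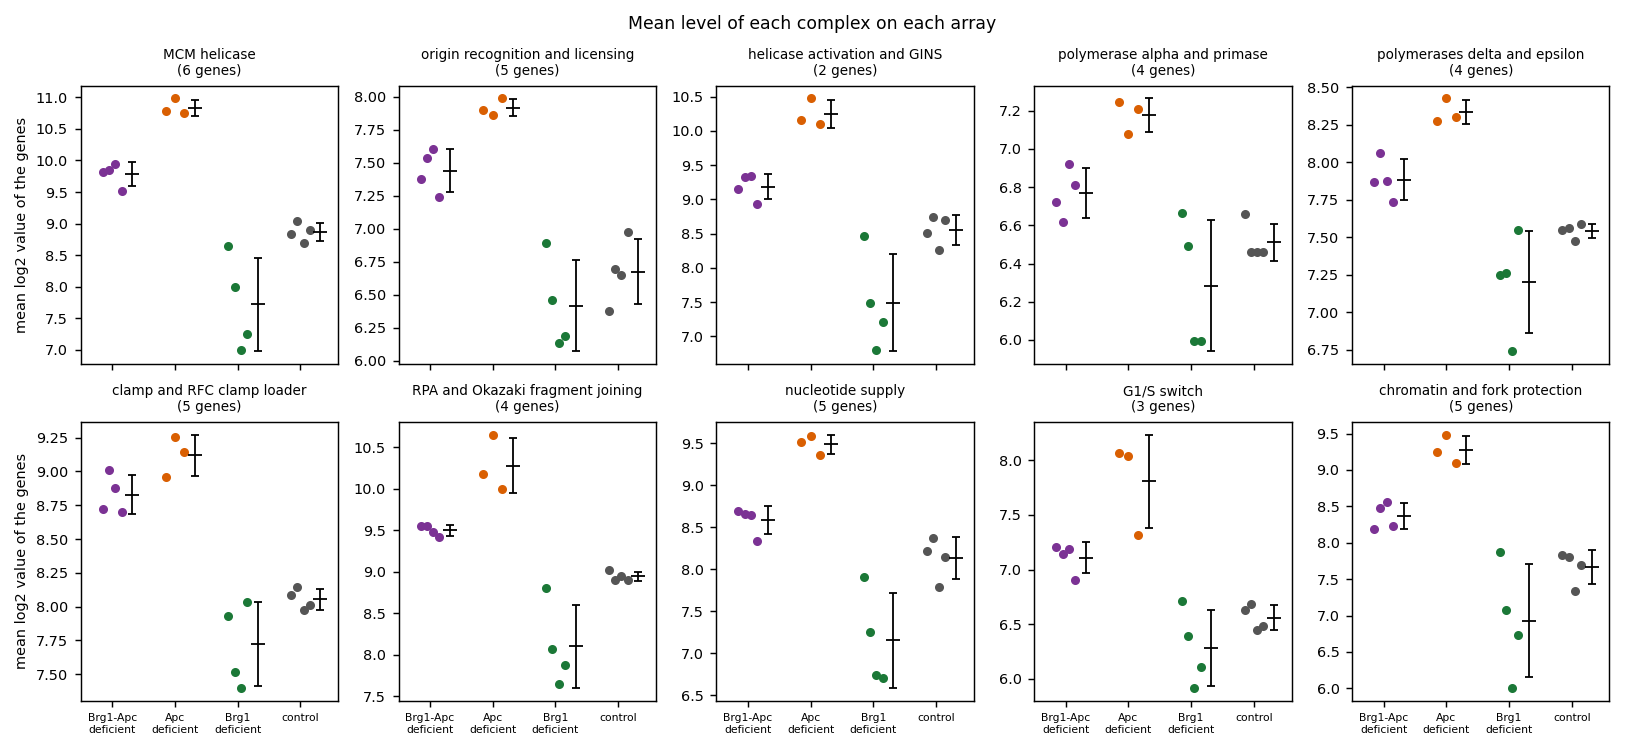
Mean log2 level of the genes of each of the 10 groups (vertical axis) on each array (points), by genotype, with the group mean and SD as bars. In all 10 panels the Apc deficient mean is the highest and the Brg1 deficient mean the lowest; for the 6 genes of the helicase ring the means are 9.78 in Brg1-Apc deficient, 10.83 in Apc deficient, 7.72 in Brg1 deficient and 8.86 in control arrays.

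Of the 5 genes that recognise and license origins, 3 rose with Apc loss and 0 passed in either comparison of Brg1 loss. Cdc6, which with Cdt1 brings the ring to the origin, had 6.83, 6.71, 6.72 and 6.68 in Brg1-Apc deficient and 7.08, 7.43 and 7.09 in Apc deficient arrays. It had 6.23, 5.88, 5.36 and 5.31 in Brg1 deficient and 5.59, 5.93, 5.63 and 5.96 in control arrays, which are near background and overlapped. It rose by 1.42 (SE 0.22, limma adjusted p = 0.000365) in Apc deficient and rose by 0.96 (SE 0.21, limma adjusted p = 0.00971) in Brg1-Apc deficient arrays, each against control. Cdt1 averaged 9.78 ± 0.21 in Brg1-Apc deficient, 10.43 ± 0.04 in Apc deficient, 7.62 ± 0.56 in Brg1 deficient and 8.44 ± 0.22 in control arrays. It rose by 1.99 (SE 0.25, limma adjusted p = 7.57e-05) with Apc loss, 3.98-fold, and its difference in Brg1 deficient against control arrays was -0.82 (SE 0.24, limma adjusted p = 0.0732).

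The subunits of the origin recognition complex gave unlike readings. Orc6 averaged 9.84 ± 0.36 in Brg1-Apc deficient, 11.02 ± 0.07 in Apc deficient, 7.79 ± 0.94 in Brg1 deficient and 8.95 ± 0.35 in control arrays, and rose by 2.06 (SE 0.38, limma adjusted p = 0.00117) with Apc loss. Its difference in Brg1-Apc deficient against Apc deficient arrays was -1.17 (SE 0.38, limma adjusted p = 0.0706), without overlap of the arrays. Orc1, the largest subunit, had 4.94, 5.29, 5.47 and 4.75 in Brg1-Apc deficient, 5.04, 4.88 and 5.52 in Apc deficient, 4.96, 4.53, 4.88 and 5.05 in Brg1 deficient and 3.27, 4.19, 4.98 and 5.06 in control arrays. These values lay below the array medians, and control replicate 1 was the lowest of them. Orc2 averaged 5.72 ± 0.23 in Brg1-Apc deficient, 5.79 ± 0.24 in Apc deficient, 6.12 ± 0.25 in Brg1 deficient and 5.83 ± 0.05 in control arrays, and its Apc deficient against control difference was -0.03 (SE 0.20, limma adjusted p = 0.956).

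Both measured activators of the helicase rose with Apc loss. Mcm10, which helps open the loaded ring, had 9.79, 10.60, 9.98 and 9.83 in Brg1-Apc deficient, 11.40, 11.59 and 11.26 in Apc deficient, 8.94, 8.39, 7.54 and 8.16 in Brg1 deficient and 9.46, 9.59, 9.48 and 9.63 in control arrays. All 4 groups were separate. It rose by 1.88 (SE 0.27, limma adjusted p = 0.0002) in Apc deficient against control arrays, and it fell by 1.37 (SE 0.27, limma adjusted p = 0.0053) in Brg1-Apc deficient against Apc deficient arrays. In Brg1 deficient against control arrays it fell by 1.28 (SE 0.25, limma adjusted p = 0.00909), a 2.43-fold fall. Together with Mcm3 it was the only member whose fall in Brg1-Apc deficient against Apc deficient arrays passed the test whichever single array was left out.

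Cdc45, which joins the ring to form the moving helicase, had 8.52, 8.05, 8.69 and 8.04 in Brg1-Apc deficient and 8.92, 9.36 and 8.93 in Apc deficient arrays. It had 7.99, 6.59, 6.06 and 6.26 in Brg1 deficient and 7.56, 7.89, 7.03 and 7.78 in control arrays, with Brg1 deficient replicate 1 above every control and the other Brg1 deficient arrays below every control. It rose by 1.50 (SE 0.36, limma adjusted p = 0.00933) with Apc loss, a call lost without Apc deficient replicate 2 (limma adjusted p = 0.0607). Its difference with Brg1 loss alone was -0.84 (SE 0.34, limma adjusted p = 0.224).

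Of the 4 subunits of polymerase alpha and primase, which lay down the primers, 2 rose with Apc loss. Pola2, the accessory subunit, averaged 8.34 ± 0.17 in Brg1-Apc deficient, 9.15 ± 0.15 in Apc deficient, 7.18 ± 0.65 in Brg1 deficient and 7.95 ± 0.14 in control arrays, and rose by 1.20 (SE 0.27, limma adjusted p = 0.0055) with Apc loss. Prim2, the large primase subunit, averaged 8.07 ± 0.34 in Brg1-Apc deficient, 8.92 ± 0.19 in Apc deficient, 6.81 ± 0.84 in Brg1 deficient and 7.15 ± 0.26 in control arrays, and rose by 1.77 (SE 0.34, limma adjusted p = 0.00195) with Apc loss. For the catalytic subunits neither difference passed the test. Pola1 had 5.11, 5.19, 5.43 and 5.33 in Brg1-Apc deficient, 5.47, 4.86 and 5.13 in Apc deficient, 5.69, 5.87, 5.30 and 5.54 in Brg1 deficient and 5.44, 5.14, 5.61 and 5.49 in control arrays, all below 5.90. Prim1 averaged 5.40 ± 0.33 in Brg1-Apc deficient, 5.49 ± 0.32 in Apc deficient, 5.55 ± 0.34 in Brg1 deficient and 5.52 ± 0.24 in control arrays, also near background. Their Apc deficient against control differences were -0.27 (SE 0.20, limma adjusted p = 0.512) for Pola1 and -0.04 for Prim1 (limma adjusted p = 0.962).

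Of the 4 subunits of the polymerases that extend the strands, 2 rose with Apc loss. Pold2, an accessory subunit of polymerase delta, had 10.06, 10.62, 10.25 and 9.93 in Brg1-Apc deficient, 10.88, 11.15 and 10.86 in Apc deficient, 9.40, 8.81, 8.49 and 9.16 in Brg1 deficient and 9.81, 10.03, 9.54 and 9.88 in control arrays. The Apc deficient arrays lay above all others and the Brg1 deficient arrays below all others. It rose by 1.15 (SE 0.23, limma adjusted p = 0.00269) with Apc loss and fell by 0.85 (SE 0.22, limma adjusted p = 0.0421) with Brg1 loss alone. That fall was lost on leaving out any single array other than Brg1-Apc deficient replicates 2 and 4 and Brg1 deficient replicates 1 and 4 (limma adjusted p up to 0.142). Pole, the catalytic subunit of polymerase epsilon, had 6.98, 6.47, 6.22 and 6.31 in Brg1-Apc deficient and 7.32, 7.67 and 7.06 in Apc deficient arrays. It had 6.05, 6.08, 5.86 and 6.11 in Brg1 deficient and 6.13, 6.50, 6.37 and 6.36 in control arrays.

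Pole rose by 1.01 (SE 0.21, limma adjusted p = 0.0033) in Apc deficient against control arrays and fell by 0.85 (SE 0.21, limma adjusted p = 0.02) in Brg1-Apc deficient against Apc deficient arrays, where the groups did not overlap. The fall was lost without Brg1-Apc deficient replicates 3 or 4, or Apc deficient replicates 1 or 2 (limma adjusted p up to 0.15). Pold1, the catalytic subunit of polymerase delta, was 1 of only 2 members highest in Brg1-Apc deficient arrays, at 9.91 ± 0.52, against 9.67 ± 0.31 in Apc deficient, 8.42 ± 0.77 in Brg1 deficient and 8.76 ± 0.21 in control arrays. It rose by 1.16 (SE 0.32, limma adjusted p = 0.0426) in Brg1-Apc deficient against control arrays, a call lost on leaving out any single array other than Brg1-Apc deficient replicate 1 and Brg1 deficient replicates 1, 3 and 4 (limma adjusted p up to 0.146). The other was Rfc2. Pole2 averaged 4.92 ± 0.22 in Brg1-Apc deficient, 5.35 ± 0.15 in Apc deficient, 5.39 ± 0.36 in Brg1 deficient and 5.26 ± 0.28 in control arrays, with an Apc deficient against control difference of 0.10 (SE 0.23, limma adjusted p = 0.879).

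The sliding clamp and its loader gave 4 rises of 5 with Apc loss. Pcna, the clamp, had 5.72, 5.36, 5.77 and 5.87 in Brg1-Apc deficient, 5.83, 6.33 and 6.29 in Apc deficient, 5.32, 5.48, 5.77 and 5.61 in Brg1 deficient and 5.41, 5.62, 5.66 and 5.41 in control arrays. Its single probe was near background in 3 of the 4 groups, and its rise with Apc loss, 0.62 (limma adjusted p = 0.0448), was lost on leaving out any single array other than Brg1-Apc deficient replicate 2, Apc deficient replicate 1, and Brg1 deficient replicates 1, 3 and 4 (limma adjusted p up to 0.197). Rfc1, the large subunit of the loader, had 9.64, 9.33, 9.87 and 9.50 in Brg1-Apc deficient, 10.44, 10.78 and 10.50 in Apc deficient, 8.61, 8.0, 7.18 and 7.28 in Brg1 deficient and 8.95, 8.77, 8.63 and 8.95 in control arrays. Its 4 groups were separate. It rose by 1.75 (SE 0.28, limma adjusted p = 0.000449) with Apc loss, fell by 0.99 (SE 0.28, limma adjusted p = 0.0428) with Brg1 loss on top of Apc loss and fell by 1.06 (SE 0.26, limma adjusted p = 0.0359) with Brg1 loss alone. The fall on top of Apc loss was lost on leaving out any single array other than Brg1-Apc deficient replicate 3 and those of the Brg1 deficient group (limma adjusted p up to 0.205). The fall with Brg1 loss alone was lost without Brg1 deficient replicates 3 or 4, or any control array (limma adjusted p up to 0.124).

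For the small loader subunits no difference of Brg1 loss passed the test. Rfc4 averaged 7.66 ± 0.19 in Brg1-Apc deficient, 7.84 ± 0.37 in Apc deficient, 6.27 ± 0.45 in Brg1 deficient and 6.56 ± 0.26 in control arrays, and rose by 1.28 (SE 0.25, limma adjusted p = 0.00223) with Apc loss. Rfc5 averaged 10.09 ± 0.35 in Brg1-Apc deficient, 10.10 ± 0.16 in Apc deficient, 8.61 ± 0.75 in Brg1 deficient and 8.90 ± 0.18 in control arrays. It rose by 1.20 (SE 0.31, limma adjusted p = 0.0156) with Apc loss, a call lost without Apc deficient replicate 3 (limma adjusted p = 0.0649). In Brg1-Apc deficient against Apc deficient arrays the differences were -0.19 (SE 0.25, limma adjusted p = 0.75) for Rfc4 and -0.01 (SE 0.31) for Rfc5. Both stayed above control when both genes were lost, Rfc4 by 1.10 (SE 0.24, limma adjusted p = 0.00964) and Rfc5 by 1.19 (SE 0.29, limma adjusted p = 0.0205). For Rfc5 this was lost without Brg1-Apc deficient replicate 2, or control replicates 3 or 4 (limma adjusted p up to 0.0772). Rfc2 averaged 11.13 ± 0.50 in Brg1-Apc deficient, 10.93 ± 0.02 in Apc deficient, 10.41 ± 0.47 in Brg1 deficient and 10.46 ± 0.06 in control arrays, and passed the test in no comparison.

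All 4 genes that coat single strands or join Okazaki fragments rose with Apc loss. Rpa1, the large subunit of the single-strand binding protein, averaged 11.56 ± 0.13 in Brg1-Apc deficient, 11.75 ± 0.10 in Apc deficient, 9.99 ± 0.29 in Brg1 deficient and 10.55 ± 0.13 in control arrays. It rose by 1.20 (SE 0.19, limma adjusted p = 0.000372) in Apc deficient and rose by 1.01 (SE 0.17, limma adjusted p = 0.00231) in Brg1-Apc deficient arrays against control. Its partner Rpa2 had 7.45, 6.75, 6.91 and 6.70 in Brg1-Apc deficient, 8.41, 8.79 and 7.41 in Apc deficient, 7.03, 6.06, 5.34 and 5.87 in Brg1 deficient and 6.71, 6.87, 6.84 and 6.81 in control arrays. Apc deficient replicate 3 lay just within the Brg1-Apc deficient range. Rpa2 rose by 1.40 (SE 0.35, limma adjusted p = 0.0117) with Apc loss and fell by 1.25 (SE 0.35, limma adjusted p = 0.0392) with Brg1 loss on top. The rise was lost without Apc deficient replicates 1 or 2 (limma adjusted p up to 0.0973). This fall did not pass on leaving out any single array other than Brg1-Apc deficient replicate 1, Apc deficient replicate 3, and those of the Brg1 deficient group (limma adjusted p up to 0.245).

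Fen1, the nuclease that trims flaps between fragments, had 10.90, 10.93, 11.18 and 10.92 in Brg1-Apc deficient, 11.62, 11.96 and 11.78 in Apc deficient, 10.24, 9.28, 8.86 and 7.85 in Brg1 deficient and 10.46, 10.46, 10.30 and 10.29 in control arrays. The Brg1 deficient arrays all lay below the controls, by most on replicate 4. It rose by 1.41 (SE 0.36, limma adjusted p = 0.0132) with Apc loss, a call lost without Apc deficient replicate 2 (limma adjusted p = 0.0685). It fell by 1.32 (SE 0.33, limma adjusted p = 0.0401) with Brg1 loss alone, a call lost on leaving out any single array other than Brg1-Apc deficient replicate 2 and Brg1 deficient replicate 1 (limma adjusted p up to 0.112). Lig1, the ligase that seals the nicks, averaged 8.50 ± 0.20 in Brg1-Apc deficient, 9.36 ± 0.54 in Apc deficient, 7.28 ± 0.46 in Brg1 deficient and 8.03 ± 0.29 in control arrays, and rose by 1.33 (SE 0.28, limma adjusted p = 0.00344) with Apc loss.

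Among the genes that supply deoxynucleotides, 3 of 5 rose with Apc loss and 2 of 5 fell with Brg1 loss alone. Rrm2, the small subunit of ribonucleotide reductase, had 8.09, 8.28, 8.46 and 7.71 in Brg1-Apc deficient, 8.58, 8.55 and 8.74 in Apc deficient, 6.22, 5.63, 5.90 and 6.18 in Brg1 deficient and 6.57, 6.98, 6.93 and 6.81 in control arrays. All 4 groups were separate. It rose by 1.80 (SE 0.21, limma adjusted p = 3.86e-05) in Apc deficient and rose by 1.31 (SE 0.20, limma adjusted p = 0.000779) in Brg1-Apc deficient arrays against control. It fell by 0.84 (SE 0.20, limma adjusted p = 0.0278) in Brg1 deficient against control arrays, a call lost without Brg1 deficient replicates 2 or 3, or control replicates 2, 3 or 4 (limma adjusted p up to 0.0888). The large subunit Rrm1 averaged 9.79 ± 0.09 in Brg1-Apc deficient, 10.56 ± 0.23 in Apc deficient, 8.0 ± 0.68 in Brg1 deficient and 8.80 ± 0.29 in control arrays, and rose by 1.76 (SE 0.29, limma adjusted p = 0.000536) with Apc loss. It also rose by 0.99 (SE 0.27, limma adjusted p = 0.0364) in Brg1-Apc deficient against control arrays, a call lost on leaving out any single array other than those of the Apc deficient group and those of the Brg1 deficient group (limma adjusted p up to 0.116).

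Tyms, which makes thymidylate, had 9.15, 8.52, 8.90 and 7.99 in Brg1-Apc deficient and 10.58, 10.81 and 10.17 in Apc deficient arrays, which did not overlap. It had 8.96, 7.92, 6.83 and 5.72 in Brg1 deficient arrays, spread over more than 3 log2 units, and 8.80, 9.28, 8.03 and 8.81 in controls. It rose by 1.79 (SE 0.54, limma adjusted p = 0.0333) with Apc loss and fell by 1.88 (SE 0.54, limma adjusted p = 0.0423) with Brg1 loss on top, so that Brg1-Apc deficient and control arrays differed by -0.09 (SE 0.50, limma adjusted p = 0.963). The rise was lost without any Apc deficient array, or control replicates 1, 3 or 4 (limma adjusted p up to 0.139). That fall was lost on leaving out any single array other than Brg1-Apc deficient replicate 1, those of the Brg1 deficient group, and control replicate 3 (limma adjusted p up to 0.192).

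Tk1, the salvage kinase for thymidine, had 9.47, 9.26, 8.91 and 9.34 in Brg1-Apc deficient, 10.21, 10.75 and 10.09 in Apc deficient, 8.92, 8.39, 6.80 and 7.71 in Brg1 deficient and 9.47, 9.71, 8.80 and 9.61 in control arrays. The Apc deficient arrays were the highest, yet the difference from control was 0.95 (SE 0.38, limma adjusted p = 0.118). It fell by 1.44 (SE 0.35, limma adjusted p = 0.0316) with Brg1 loss alone, with Brg1 deficient replicate 1 inside the control range, and the call was lost without Brg1 deficient replicates 3 or 4, or control replicates 1, 2 or 4 (limma adjusted p up to 0.101). Dut, which keeps uracil out of DNA, averaged 7.09 ± 0.22 in Brg1-Apc deficient, 7.37 ± 0.46 in Apc deficient, 6.47 ± 0.10 in Brg1 deficient and 6.91 ± 0.22 in control arrays and passed the test in no comparison.

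The switch itself was represented by 3 genes, of which 2 rose with Apc loss. E2f1, a transcription factor of the S phase genes, had 8.95, 9.78, 8.94 and 9.01 in Brg1-Apc deficient, 9.32, 9.39 and 9.28 in Apc deficient, 7.81, 7.52, 6.05 and 7.27 in Brg1 deficient and 7.82, 7.88, 7.84 and 7.34 in control arrays. Both groups without Apc lay above both groups with it. It rose by 1.61 (SE 0.33, limma adjusted p = 0.00287) in Apc deficient and rose by 1.45 (SE 0.31, limma adjusted p = 0.00825) in Brg1-Apc deficient arrays against control. The difference between those 2 groups was -0.16 (SE 0.33, limma adjusted p = 0.854), and Brg1-Apc deficient replicate 2 was their highest array.

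Ccne1, a cyclin that drives entry into S phase, had 6.86, 6.02, 6.88 and 6.60 in Brg1-Apc deficient, 7.03, 7.59 and 6.75 in Apc deficient, 6.19, 5.81, 5.99 and 5.67 in Brg1 deficient and 5.87, 6.06, 5.84 and 6.08 in control arrays. It rose by 1.16 (SE 0.24, limma adjusted p = 0.0033) with Apc loss, and its difference with Brg1 loss alone was -0.05 (SE 0.22, limma adjusted p = 0.947). Ccne2, its relative, had 5.80, 5.61, 5.74 and 5.08 in Brg1-Apc deficient, 7.85, 7.12 and 5.92 in Apc deficient, 6.13, 5.84, 5.71 and 5.39 in Brg1 deficient and 6.19, 6.11, 5.64 and 6.04 in control arrays. The Apc deficient arrays were far apart, and replicate 3 lay within the control range. Ccne2 did not pass against control (0.97, limma adjusted p = 0.0747) but fell by 1.40 (SE 0.34, limma adjusted p = 0.0181) in Brg1-Apc deficient against Apc deficient arrays. That call was lost without Brg1-Apc deficient replicate 4, or Apc deficient replicates 1 or 2 (limma adjusted p up to 0.113).

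Of the 5 genes that rebuild chromatin or protect the fork, 4 rose with Apc loss. Chaf1b, a subunit of the CAF-1 histone chaperone, had 9.39, 10.08, 9.41 and 8.98 in Brg1-Apc deficient, 10.01, 10.66 and 10.44 in Apc deficient, 8.26, 7.43, 6.67 and 8.07 in Brg1 deficient and 8.49, 8.17, 7.87 and 8.02 in control arrays. It rose by 2.23 (SE 0.34, limma adjusted p = 0.000268) in Apc deficient and rose by 1.33 (SE 0.31, limma adjusted p = 0.0158) in Brg1-Apc deficient arrays against control. The second of these was lost without Brg1-Apc deficient replicate 2, or control replicates 3 or 4 (limma adjusted p up to 0.0623). Its partner Chaf1a had 8.82, 8.84, 8.97 and 9.03 in Brg1-Apc deficient, 9.60, 9.86 and 9.39 in Apc deficient, 8.15, 7.29, 5.61 and 6.32 in Brg1 deficient and 8.38, 8.41, 8.35 and 8.41 in control arrays. The controls lay close together, and every Brg1 deficient array was below them.

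Chaf1a rose by 1.23 (SE 0.39, limma adjusted p = 0.0469) with Apc loss and fell by 1.54 (SE 0.36, limma adjusted p = 0.0292) with Brg1 loss alone. The rise was lost on leaving out any single array other than Brg1 deficient replicates 1, 3 and 4 (limma adjusted p up to 0.183). The fall was lost without Brg1 deficient replicates 3 or 4, or any control array (limma adjusted p up to 0.0799). Uhrf1, which brings maintenance methylation to new DNA, had 10.36, 10.35, 10.39 and 10.17 in Brg1-Apc deficient, 10.78, 11.13 and 10.93 in Apc deficient, 9.35, 8.24, 6.52 and 8.54 in Brg1 deficient and 9.59, 9.38, 9.34 and 9.17 in control arrays. Brg1 deficient replicate 1 lay within the control range and replicate 3 was the lowest. Uhrf1 rose by 1.58 (SE 0.42, limma adjusted p = 0.0171) with Apc loss, a call lost without Apc deficient replicates 2 or 3 (limma adjusted p up to 0.0818), and its difference with Brg1 loss alone was -1.21 (SE 0.39, limma adjusted p = 0.115).

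Tipin, which with Timeless stabilises the fork, had 9.97, 9.87, 9.98 and 9.54 in Brg1-Apc deficient, 11.08, 11.03 and 10.74 in Apc deficient, 8.81, 7.90, 7.08 and 7.10 in Brg1 deficient and 9.0, 9.09, 8.44 and 8.91 in control arrays. It rose by 2.09 (SE 0.33, limma adjusted p = 0.000356) with Apc loss and fell by 1.11 (SE 0.33, limma adjusted p = 0.0491) with Brg1 loss on top. This fall did not pass on leaving out any single array other than Brg1 deficient replicates 1, 3 and 4 (limma adjusted p up to 0.191). With Brg1 loss alone the difference was -1.14 (SE 0.30, limma adjusted p = 0.054). Slbp, which binds the stem loop of histone mRNAs, had 2.43, 3.23, 4.08 and 3.46 in Brg1-Apc deficient, 4.74, 4.71 and 3.98 in Apc deficient, 4.82, 4.55, 4.15 and 3.67 in Brg1 deficient and 3.73, 3.96, 2.68 and 3.99 in control arrays. All 15 values lay below 5.90, near background, so its differences are not read here.

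**Figure D3:**
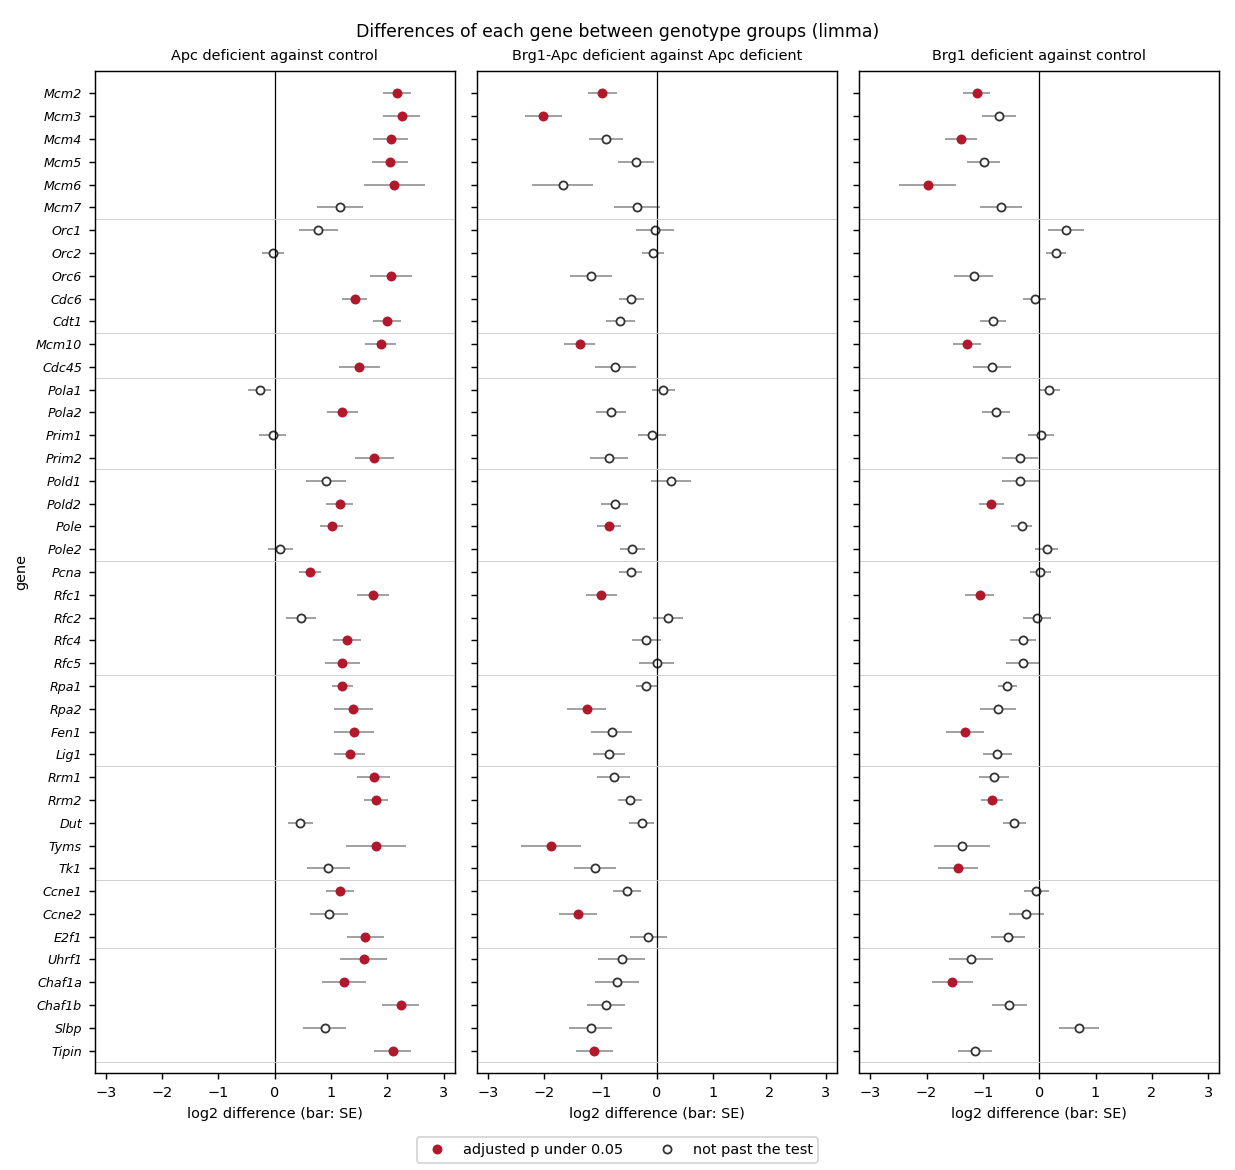
Log2 difference of each of the 43 genes (down the page) with Apc loss (Apc deficient against control arrays), with Brg1 loss on top of it (Brg1-Apc deficient against Apc deficient arrays) and with Brg1 loss alone (Brg1 deficient against control arrays), with bars of 1 SE; filled points have a limma adjusted p under 0.05. In the left panel 31 points are filled, all to the right of 0, and in the other panels 9 and 10 are filled, all to the left.

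Most of the rises with Apc loss did not depend on a single array. Of the 31 genes that rose, 22 did so whichever single array was left out, and for 35 of the 43 every Apc deficient array lay above every control, as it did for 13.8% of all probes. The 12 that did not pass were Mcm7, Orc1, Orc2, Pola1, Prim1, Pold1, Pole2, Rfc2, Dut, Tk1, Ccne2 and Slbp. The median was 1.35 on slide 1 and 1.34 on slide 2, although slide 2 alone, with 1 Apc deficient array, gave 2 calls. Markers of cell types passed the test in this comparison as well. Of 12 absorptive enterocyte markers 10 fell, with list means of 8.78 to 10.18 on Apc deficient and 11.47 to 11.71 on control arrays. Of 11 T cell and intraepithelial lymphocyte markers 6 fell (list means 6.30 to 6.85 on Apc deficient and 7.31 to 8.27 on control arrays), and of 9 crypt base stem cell markers 7 rose (8.62 to 8.92 on Apc deficient and 7.14 to 7.29 on control arrays). Of 11 general epithelial markers 2 rose and 2 fell, and of 6 Paneth cell markers 2 rose and 0 fell. Their part in the result was not tested.

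With Brg1 lost on top of Apc, 40 of the 43 differences from Apc deficient arrays were negative and 9 passed the test. The 9 genes that fell were Mcm2, Mcm3, Mcm10, Pole, Rfc1, Rpa2, Tyms, Ccne2 and Tipin, and 8 of them were among the 31 that rose with Apc loss. Both comparisons use the same Apc deficient arrays, with opposite sign, so this overlap is no separate result. For 25 of the 43 every Brg1-Apc deficient array lay below every Apc deficient array, as it did for 11.4% of all probes. At an unadjusted p under 0.05 25 members were lower and 0 higher, against 11.0% of all probes lower and 9.39% higher. Only 2 of the 9 calls passed whichever array was left out. The count was 2 on leaving out replicate 1 or 2 of the Apc deficient arrays or replicate 4 of the Brg1-Apc deficient arrays. It was 5 without Apc deficient replicate 3, Brg1-Apc deficient replicate 2 or any 1 of control replicates 1, 2 and 4. It was 16 without replicate 4 of the Brg1 deficient group, and 17 without its replicate 1. It was 19 when only these 2 groups were fitted and 20 with array weights. In the same comparison 4 of 12 enterocyte markers rose (list means 9.99 to 11.13 on Brg1-Apc deficient and 8.78 to 10.18 on Apc deficient arrays) and 5 of 11 lymphocyte markers rose (7.23 to 7.78 and 6.30 to 6.85 on those arrays). Of 11 general epithelial markers 1 rose and 2 fell. Of 9 stem cell markers 5 fell (7.11 to 7.72 on Brg1-Apc deficient and 8.62 to 8.92 on Apc deficient arrays), and the part of these cell types was not tested.

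Against control, Brg1-Apc deficient arrays still had higher levels of many members. Of the 43, 13 rose and 0 fell, with a median of 0.67 against 0.02 over all probes, of which 2.96% rose and 3.14% fell. The 13 were Mcm2, Mcm4, Mcm5, Cdc6, Cdt1, Pold1, Rfc4, Rfc5, Rpa1, Rrm1, Rrm2, E2f1 and Chaf1b, and 12 of them had also risen in Apc deficient against control arrays. These comparisons share the control arrays. Of the 13 calls 8 passed whichever single array was left out. The largest of the 13 was Mcm5, which rose by 1.67, or 3.19-fold, and the next were E2f1, Cdt1, Chaf1b and Rrm2. The count fell to 8 without control replicate 3 or 4. It fell to 4 without both control replicates 1 and 4, the arrays with high muscle or acinar markers, where the median was 0.64. Leaving out both also cut the calls over all probes, from 761 to 182 risen and from 808 to 211 fallen. In the same comparison 1 of 12 enterocyte markers fell and 0 rose (list means 9.99 to 11.13 on Brg1-Apc deficient and 11.47 to 11.71 on control arrays). Of 8 macrophage and dendritic cell markers 1 fell and 0 rose (5.81 to 6.36 on Brg1-Apc deficient and 6.45 to 7.12 on control arrays), and neither list's means overlapped between the groups. Of 8 fibroblast and matrix markers 1 fell and 0 rose, and of 9 stem cell markers 1 rose and 1 fell (7.11 to 7.72 on Brg1-Apc deficient and 7.14 to 7.29 on control arrays). Their part in the result was not tested.

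With Brg1 lost in both groups, 28 of the 43 genes rose and 0 fell with Apc loss, with a median of 1.39 against -0.04 over all probes. Of all probes 4.45% rose and 0.934% fell in this comparison of Brg1-Apc deficient with Brg1 deficient arrays. Of the 28 calls 25 passed whichever single array was left out, and those of Mcm7, Prim2 and Tk1 did not. Prim2 was lost without Brg1-Apc deficient replicates 1 or 3, or Brg1 deficient replicate 3 (limma adjusted p up to 0.0946). Tk1 was lost without any Brg1-Apc deficient array, or Brg1 deficient replicate 3, or control replicate 1 (limma adjusted p up to 0.111). The largest were Mcm5, which rose by 2.66 (SE 0.30, limma adjusted p = 8.28e-05), and Mcm4, which rose by 2.54 (SE 0.28, limma adjusted p = 8.25e-05). After quantile normalization 896 of all probes were higher and 383 lower, where the deposited values gave 1144 higher and 240 lower. Of 9 stem cell markers 4 rose and 0 fell in the same comparison, with list means of 7.11 to 7.72 on Brg1-Apc deficient and 6.09 to 6.80 on Brg1 deficient arrays, which did not overlap, and their part in the result was not tested.

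The interaction asks whether the difference made by Brg1 loss was another in epithelium without Apc than in epithelium with it. For this 0 of the 43 passed (limma), with a median of 0.04 against -0.01 over all probes, of which 0.638% were higher and 0.237% lower. At an unadjusted p under 0.05 0 members were higher and 3 lower, against 6.39% of all probes higher and 4.44% lower, so these counts are no result about the members. The 3 were Mcm3, Ccne2 and Slbp, and Slbp lay near background on all 15 arrays. Over the 38 members with a group mean above 5.90 values ran between -1.30 for Mcm3 and 0.83 for Chaf1a, with standard errors of 0.45 and 0.54. This does not show that the effects were equal. Without Brg1 deficient replicate 4 the count was 1, and the call was that of Slbp at background levels.

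The fall with Brg1 loss alone rested on arrays that differed widely. The median SD of a member was 0.32 over the Brg1-Apc deficient, 0.23 over the Apc deficient, 0.62 over the Brg1 deficient and 0.20 over the control arrays. Over all probes it was 0.29 in Brg1-Apc deficient, 0.27 in Apc deficient, 0.36 in Brg1 deficient and 0.25 in control arrays. The median distance of the members from the control mean was -0.03 on Brg1 deficient replicate 1, -0.73 on replicate 2, -1.22 on replicate 3 and -0.66 on replicate 4. On replicate 1 only 15 of the 43 lay below the lowest control, against 30, 34 and 31 on replicates 2, 3 and 4. The share of all probes below the lowest control was not counted on single arrays. These counts therefore compare the arrays and are no result about the members. Smarca4 was as low on replicate 1 as on the others, at 6.03 against 6.18, 6.22 and 6.36. The interquartile range of all probes was 2.35, 2.11, 1.89 and 1.23 on replicates 1, 2, 3 and 4, against 2.01 to 2.56 on the arrays of the other groups, and its part in the lower values was not tested.

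**Figure D4:**
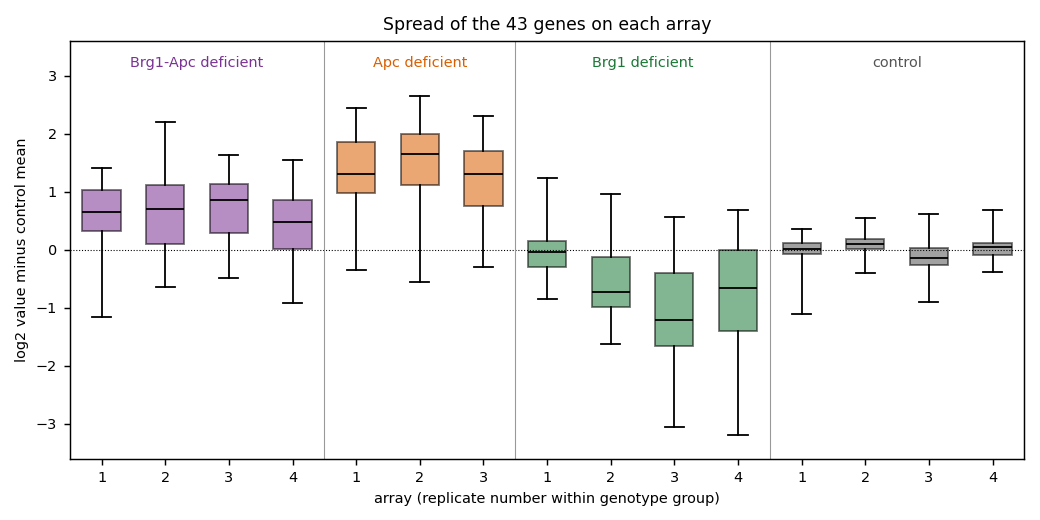
Distribution over the 43 genes of the log2 value minus the control mean (vertical axis) on each of the 15 arrays (horizontal axis); the box spans the quartiles, the line is the median and whiskers reach the lowest and highest gene. The Brg1 deficient medians are -0.03, -0.73, -1.22 and -0.66, so replicate 1 sits with the controls, and the Apc deficient medians are 1.30, 1.65 and 1.31.

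The 10 genes that fell in Brg1 deficient against control arrays were Mcm2, Mcm4, Mcm6, Mcm10, Pold2, Rfc1, Fen1, Rrm2, Tk1 and Chaf1a, and only Mcm4 and Mcm10 passed whichever single array was left out. In all 36 of the 43 differences were negative, and for 11 every Brg1 deficient array lay below every control, as it did for 5.34% of all probes. At an unadjusted p under 0.05 24 members were lower and 0 higher, against 9.37% of all probes lower and 6.16% higher. Leaving out a Brg1 deficient array gave counts of 20 for replicate 1, 6 for replicate 2, 2 for replicate 3 and 5 for replicate 4. Leaving out a control array gave counts of 4 for replicate 1, 2 for replicate 2, 4 for replicate 3 and 3 for replicate 4. It was 1 (Mcm10) when only these 2 groups were fitted, 0 with control replicates 1 and 4 left out, and 5 after quantile normalization, which gave 293 of all probes higher and 308 lower, where the deposited values gave 176 higher and 545 lower. With control replicates 1 and 4 left out 100 of all probes fell. The medians under these settings ran between -0.93 and -0.41, and were -0.42 on slide 1 and -0.93 on slide 2. Of 9 stem cell markers Olfm4 and Cdca7 fell in the same comparison (list means 6.09 to 6.80 on Brg1 deficient and 7.14 to 7.29 on control arrays). Of 12 enterocyte markers 0 rose and 1 fell, 10 of the 12 differences were negative and 5 markers separated without overlap. The enterocyte list means were 10.46 to 11.13 on Brg1 deficient and 11.47 to 11.71 on control arrays, which did not overlap. Of 11 lymphocyte markers 0 passed (7.43 to 8.25 on Brg1 deficient and 7.31 to 8.27 on control arrays). The part of these cell types in the result was not tested.

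Other genes of the pathway were counted in lists by function. In Brg1-Apc deficient against Apc deficient arrays 1 rose and 4 fell of 37 further replication genes, 0 rose and 1 fell of 12 genes of nucleotide supply, 0 rose and 2 fell of 23 genes of the E2F and G1 list, 1 rose and 0 fell of 7 kinase inhibitors, and 0 rose and 2 fell of 23 genes of G2 and mitosis. Over all probes 3.21% rose and 3.97% fell in that comparison, and counts of 1 or 2 genes are not read as results about a list. Of all probes 7.15% rose and 6.05% fell with Apc loss, and 0.685% rose and 2.12% fell with Brg1 loss alone. Of the 37 replication genes 15 rose and 0 fell with Apc loss (median 0.59), and 1 rose and 4 fell with Brg1 loss alone (median -0.30). The smallest p-values with Apc loss were those of Wdhd1, a fork protein, which rose by 1.21 (SE 0.22, limma adjusted p = 0.00106), Orc5, an origin recognition subunit, which rose by 1.30 (SE 0.25, limma adjusted p = 0.00181), and Dnmt1, the maintenance methyltransferase, which rose by 1.33 (SE 0.28, limma adjusted p = 0.00315). Wdhd1 then fell by 1.50 (SE 0.22, limma adjusted p = 0.000457) with Brg1 loss on top. With Brg1 loss alone Chtf18, of an alternative clamp loader, fell by 1.15 (SE 0.23, limma adjusted p = 0.0114) and Atad5, which unloads the clamp, fell by 1.07 (SE 0.23, limma adjusted p = 0.0174). The fall of Atad5 was lost without Brg1 deficient replicate 3, or control replicate 4 (limma adjusted p up to 0.0706). Pold4, a small subunit of polymerase delta, was the gene that rose: it averaged 9.46 ± 0.42 in Brg1 deficient and 8.31 ± 0.10 in control arrays and rose by 1.16 (SE 0.23, limma adjusted p = 0.0093).

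Of the 12 genes of nucleotide supply 5 rose and 0 fell with Apc loss (median 0.49), and 0 passed with Brg1 loss alone (median -0.11). Over all probes 7.15% rose and 6.05% fell with Apc loss, and 0.685% rose and 2.12% fell with Brg1 loss alone. Dctd, dCMP deaminase, averaged 9.89 ± 0.28 in Apc deficient and 7.39 ± 0.29 in control arrays and rose by 2.51 (SE 0.44, limma adjusted p = 0.00094). Shmt1, which feeds one-carbon units to thymidylate synthesis, rose by 1.94 (SE 0.26, limma adjusted p = 0.000124), and Nme1, a nucleoside diphosphate kinase, rose by 1.06 (SE 0.20, limma adjusted p = 0.00162).

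Of the 23 genes for other E2F proteins, pocket proteins, G1 cyclins and their partners, 6 rose and 1 fell with Apc loss (median 0.42) and 0 rose and 3 fell with Brg1 loss alone (median 0.04). The shares of all probes were 7.15% risen and 6.05% fallen with Apc loss, and 0.685% risen and 2.12% fallen with Brg1 loss alone. Mybl2, a transcription factor of the cell cycle, rose by 2.14 (SE 0.30, limma adjusted p = 0.000162) with Apc loss and fell by 1.16 (SE 0.28, limma adjusted p = 0.0322) with Brg1 loss. That fall was lost without Brg1 deficient replicates 2 or 3, or control replicates 1, 2 or 4 (limma adjusted p up to 0.113). E2f6, a repressor of the family, rose by 1.43 (SE 0.22, limma adjusted p = 0.00027) with Apc loss. Myc, a Wnt target that drives growth, averaged 5.20 ± 0.50 in Brg1-Apc deficient, 7.13 ± 0.71 in Apc deficient, 5.53 ± 0.33 in Brg1 deficient and 5.49 ± 0.14 in control arrays. All means but that of the Apc deficient group were near background. It rose by 1.64 (SE 0.31, limma adjusted p = 0.00162) with Apc loss, and unlike the 43 members it had an interaction past the test, -1.97 (SE 0.42, limma adjusted p = 0.0388). That interaction was lost on leaving out any single array other than Brg1-Apc deficient replicate 2, Apc deficient replicate 3, and Brg1 deficient replicates 3 and 4 (limma adjusted p up to 0.134). With Brg1 loss alone Ccnd1, a D-type cyclin, fell by 2.10 (SE 0.38, limma adjusted p = 0.00498) and Cdk2, the partner of cyclin E, fell by 1.57 (SE 0.31, limma adjusted p = 0.00862).

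The 7 inhibitors of cyclin-dependent kinases had 0 rises and 1 fall with Apc loss (median 0.06), and 0 rises and 1 fall with Brg1 loss alone (median -0.02). Of all probes 6.05% fell with Apc loss and 2.12% with Brg1 loss alone. Each count here rests on 1 gene and is not read as a result about the list. Cdkn2b, which blocks the D-type cyclin kinases, averaged 10.33 ± 0.04 in Brg1-Apc deficient, 8.43 ± 0.25 in Apc deficient, 11.57 ± 0.31 in Brg1 deficient and 11.06 ± 0.08 in control arrays. It fell by 2.63 (SE 0.19, limma adjusted p = 4.32e-07) with Apc loss, and in Brg1-Apc deficient against Apc deficient arrays it rose by 1.90 (SE 0.19, limma adjusted p = 2.84e-05). Its interaction was 1.40 (SE 0.26, limma adjusted p = 0.0239), a call lost without Brg1-Apc deficient replicates 1 or 4, or Apc deficient replicate 2, or control replicates 1 or 3 (limma adjusted p up to 0.0849). Cdkn2c, of the same family, fell by 0.75 (SE 0.18, limma adjusted p = 0.0298) with Brg1 loss alone, a call lost without Brg1 deficient replicates 1 or 3, or control replicates 1, 2 or 4 (limma adjusted p up to 0.102).

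Of the 23 genes of G2 and mitosis 12 rose and 0 fell with Apc loss (median 1.10), and 0 rose and 4 fell with Brg1 loss alone (median -0.69), the same directions as the replication genes. Over all probes 7.15% rose and 6.05% fell with Apc loss, and 0.685% rose and 2.12% fell with Brg1 loss alone. Ndc80, part of the kinetochore, rose by 1.24 (SE 0.22, limma adjusted p = 0.00104) with Apc loss. Bub1b, of the spindle checkpoint, rose by 1.54 (SE 0.30, limma adjusted p = 0.00186). Incenp, a scaffold of the chromosomal passenger complex, rose by 1.53 (SE 0.33, limma adjusted p = 0.00428) with Apc loss and fell by 1.36 (SE 0.31, limma adjusted p = 0.0224) with Brg1 loss alone. The fall was lost without Brg1 deficient replicate 3, or control replicates 1 or 2 (limma adjusted p up to 0.0844). With Brg1 loss alone Birc5, of the same complex, fell by 1.65 (SE 0.41, limma adjusted p = 0.039), a call lost on leaving out any single array other than Brg1-Apc deficient replicate 2 and Brg1 deficient replicates 1 and 2 (limma adjusted p up to 0.135). Prc1, which bundles spindle microtubules, fell by 1.29 (SE 0.33, limma adjusted p = 0.0438), a call lost on leaving out any single array other than Brg1-Apc deficient replicate 2, Brg1 deficient replicates 1 and 4, and control replicate 3 (limma adjusted p up to 0.141).

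A second reading came from 27 further probes of 15 members, which share their arrays with the first. Of these 16 were near background in every group. Of the other 11, all 11 had the sign of the chosen probe with Apc loss, 10 in Brg1-Apc deficient against Apc deficient arrays and 8 with Brg1 loss alone, and 0 passed the test in the opposite direction. A probe each of Mcm4, Lig1 and Tyms was above 5.90 only in Apc deficient arrays (means 6.03, 6.22 and 6.40). Their signs in comparisons with that group were fixed by this choice and are no separate result. A Cdc6 probe was above 5.90 only in Brg1 deficient arrays (6.01), which fixed its sign with Brg1 loss alone. The second Mcm10 probe differed by 1.73 with Apc loss (limma adjusted p = 0.0155), by -2.12 with Brg1 loss on top (adjusted p = 0.00861) and by -1.91 with Brg1 loss alone (adjusted p = 0.0185). The second Mcm6 probe above background differed by 2.24, -1.85 and -1.46 in the same comparisons (limma adjusted p = 0.00352, 0.024 and 0.0885). The second Rrm2 probe fell by 1.02 in Brg1-Apc deficient against Apc deficient arrays (limma adjusted p = 0.0274), where the chosen probe did not pass. With Brg1 loss alone, where the chosen Rrm2 probe fell, the second differed by -0.22 (limma adjusted p = 0.719). The second Tk1 probe above background differed there by -0.37 (limma adjusted p = 0.442). For Mcm4 a further probe, above background only in Apc deficient arrays (mean 6.03), had the opposite sign there, 0.17 (limma adjusted p = 0.718).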

How the data were processed

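Total RNA of scraped jejunal epithelium was labelled with Cy3 and hybridised to Illumina bead arrays, 1 per mouse, per the labels. The log2 values used here are those the authors deposited, without missing values. Their background correction, normalization and probe filter are not given in the sources used here. Of 25695 probes, 23976 carried 1 gene symbol in the platform annotation and 1719 none, which gave 16592 genes, and 0 symbols were updated. The probe with the highest mean stood for its gene.

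A linear model with 1 mean per genotype was fitted over all 15 arrays and all probes with limma 3.58.1 in R 4.3.3 (lmFit and eBayes, two-sided, 11 residual degrees of freedom), and 6 comparisons were drawn from it. Benjamini-Hochberg adjustment ran over all probes, and a gene passed at an adjusted p under 0.05. Tables and figures used Python 3.11.15, pandas 2.3.3 and matplotlib 3.10.9. Promoters are RefSeq's (GRCm38.p6).

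The genes and lists were chosen with earlier results of these data known. All measured members are given. Every array is given for 1 or more genes of each step, picked by role, and for any other member that passed with Brg1 loss or in the interaction. From each list of other pathway genes the 3 with the smallest p are named, where they passed, in Apc deficient and in Brg1 deficient arrays, each against control. Olfm4 and Cdca7 were named after their values were seen.

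The alternatives changed the fit (a block for slide or for replicate number, array weights, a trended prior with robust variances, a fit limited to 2 groups), the values (quantile normalization, median centring, another choice of probe, dropping the dimmer probes) or the arrays (1 slide, or all arrays but 1). Over 21 pairs of arrays with the same replicate number from different groups the correlation of deviations from the group means lay between -0.179 and 0.275, and 8 exceeded 0.1. In none of the 5 comparisons of groups did every such pair exceed 0.1, so the numbers were not taken to pair the arrays. The 3 pairs of Apc deficient with Brg1 deficient arrays, which were not compared, lay between 0.113 and 0.117.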

Additional observations from a re-analysis of the deposited data

Results flagged for a closer look

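In 129 sets of 4 arrays, which are the 43 genes in each of the Brg1-Apc deficient, Brg1 deficient and control groups, 6 had a highest or lowest array whose gap to its neighbour exceeded 0.83 of the whole range (Dixon's critical value for 4 samples). Chance alone gives about 1 in 20, so this number is no more than chance gives. Mcm3 on Brg1-Apc deficient replicate 4 stood at 6.36 where the other 3 arrays lay between 7.28 and 7.34, a gap of 0.945 of the range. Fen1 on Brg1-Apc deficient replicate 3 stood at 11.18, above 10.90 to 10.93 (0.919). E2f1 on Brg1-Apc deficient replicate 2 stood at 9.78, above 8.94 to 9.01 (0.912). Uhrf1 on Brg1-Apc deficient replicate 4 stood at 10.17, below 10.35 to 10.39 (0.835). Dut on Brg1 deficient replicate 2 stood at 6.32, below 6.50 to 6.53 (0.882). E2f1 on control replicate 4 stood at 7.34, below 7.82 to 7.88 (0.874).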

How the results depend on the processing

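No median difference over the 43 genes changed sign in the 5 comparisons of groups under any alternative tried. The medians lay between 1.25 and 1.48 with Apc loss, between -0.82 and -0.59 in Brg1-Apc deficient against Apc deficient arrays, between -0.93 and -0.41 with Brg1 loss alone, between 0.59 and 0.79 in Brg1-Apc deficient against control arrays and between 1.12 and 1.62 in Brg1-Apc deficient against Brg1 deficient arrays. The median interaction lay between -0.28 and 0.29.

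The number of genes passing the test moved more, and the cause was not tested. With Brg1 loss alone (10 genes) it was 0 on slide 1, 3 on slide 2, 5 after quantile normalization and 1 with only the groups compared, and 2 to 20 when single arrays were left out. In Brg1-Apc deficient against Apc deficient arrays (9 genes) it was 0 on slide 2, 19 with only the groups compared and 20 with array weights, and 2 to 17 when single arrays were left out. In Brg1-Apc deficient against control arrays (13 genes) it was 4 on slide 1, 0 on slide 2 and 20 with only the groups compared, and 8 to 17 when single arrays were left out. With Apc loss (31 genes) it was 2 on slide 2, where the lone Apc deficient array was assumed to vary like the other groups. Between Brg1-Apc deficient and Brg1 deficient arrays (28 genes) it was 14 on slide 1 and 16 on slide 2. In the interaction (0 genes) it was 1 on slide 1 and 0 to 1 when single arrays were left out, and the call was each time that of Slbp, whose 15 values lay near background. Counts over all probes moved as well. With Brg1 loss alone 545 probes fell in the main fit, 120 on slide 1 and 54 on slide 2. There 303 fell with only the groups compared. In Brg1-Apc deficient against Apc deficient arrays 1019 fell in the main fit, 1590 with only the groups compared and 1769 with array weights. Without Apc deficient replicate 2 the number was 284. In Brg1-Apc deficient against control arrays 761 rose in the main fit, 207 on slide 1 and 1161 with only the groups compared.

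Leaving out pairs of arrays was chosen after seeing the data. Without replicate 2 of the Brg1-Apc deficient and replicate 4 of the Brg1 deficient group, which stand apart, 6 genes passed with Brg1 loss alone and 1 in the interaction. Without control replicates 1 and 4, 0 passed with Brg1 loss alone, 4 in Brg1-Apc deficient against Apc deficient arrays and 4 in Brg1-Apc deficient against control arrays. Calls over all probes dropped in that fit as well. There 100 fell with Brg1 loss alone, 725 fell in Brg1-Apc deficient against Apc deficient arrays and 182 rose in Brg1-Apc deficient against control arrays.

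Replicate numbers were not taken to pair the arrays, since in no comparison of groups did every same-numbered pair correlate above 0.1. With the replicate number as a block 30 genes passed with Apc loss, 8 in Brg1-Apc deficient against Apc deficient arrays, 11 with Brg1 loss alone, 13 in Brg1-Apc deficient against control arrays, 29 in Brg1-Apc deficient against Brg1 deficient arrays and 0 in the interaction. Arrays of 3 or 4 mice, a wide Brg1 deficient group and 9 probes near background in 1 or more groups limit what could be detected.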
